A study of Homo sapiens with 27 samples.

Results

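The genes described here are the 10 core components of the oxygen-sensing pathway: the hypoxia-inducible factor alpha subunits HIF1A, EPAS1 and HIF3A, their beta partners ARNT and ARNT2, the prolyl hydroxylases EGLN1, EGLN2 and EGLN3, the asparaginyl hydroxylase HIF1AN, and the ubiquitin ligase subunit VHL. They were taken by symbol from a table of RNA-seq counts for 20268 genes, and all 10 were in it. The table covered 3 human prostate cancer cell lines, hormone-sensitive LNCaP and hormone-insensitive LNCaP95 and 22Rv1. Lentivirus brought into them either a non-targeting hairpin (CTRL sh) or a hairpin against CPSF1 (CPSF1 sh1 or CPSF1 sh2), a subunit of the complex that cleaves and polyadenylates pre-mRNA. Infected cells were selected with puromycin. Wells given the same number of cells in all groups were harvested after 72 h of growth. The 9 groups had 3 replicates each, for 27 libraries. LNCaP and 22Rv1 cells grew in RPMI medium with serum and LNCaP95 cells in the same medium without phenol red, so that line and medium cannot be told apart for LNCaP95. Cells of all groups carried an integrated lentivirus, and uninfected cells were not part of these libraries. No low-oxygen condition is named in the labels.

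In cells with enough oxygen, EGLN enzymes hydroxylate prolines of the HIF-alpha proteins, which are then bound by VHL and degraded, while HIF1AN hydroxylates an asparagine that blocks coactivator binding. When oxygen is low, the alpha proteins persist, pair with ARNT or ARNT2 and bind hypoxia response elements of genes for glycolysis, vascular growth and oxygen sensing, with EGLN1 and EGLN3 among the known targets. Much of this control acts on the proteins, and the values below are mRNA levels only. The question addressed was whether the mRNA of any of these components moved with CPSF1 knockdown in the lines and hairpins in which mRNA of HIF target genes fell.

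The core of a hypoxia response element is ACGTG or GCGTG. Promoter sequences from RefSeq, 250 bases before to 50 bases after a transcription start, were held for 8 of the 10 genes in 12 windows, and 5 windows, each of a different gene, contained the core on either strand. Over all 35116 promoters of that table the share with a match was 48.4%, so that a match was common. Windows of 29 bases, read 5′ to 3′ on the gene's strand with the core in capitals, are shown for the expressed genes that had one. Of these, EGLN1 fell after knockdown in each line and EGLN2 in LNCaP and LNCaP95, and HIF1A and EPAS1 encode the factors themselves. ARNT and EGLN3 fell in LNCaP and LNCaP95 without a match. A match is a description of letters and was not tested as a binding site.
EGLN1: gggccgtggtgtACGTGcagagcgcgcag
EGLN2: cggggcgcggtcACGTGcccaccgggcga
HIF1A: tggctgagagcgGCGTGggctggggtggg
EPAS1: gggcctgccggcGCGTGcccgcccacaca
In GRCh38.p14 these windows lie at chr1:231422284-231422312 on the minus strand (EGLN1), and on the plus strand at chr19:40799131-40799159 (EGLN2), chr14:61695297-61695325 (HIF1A) and chr2:46297278-46297306 (EPAS1). Counted from the start site, the first base of the core is at position -13 in EGLN1, -48 in EGLN2, -204 in HIF1A and -117 in EPAS1. The EGLN2 match continues as CACGTG, a palindrome that holds the core on both strands. HIF3A had 3 matches in 1 of its 3 windows, and the windows of ARNT, HIF1AN and EGLN3 had none.

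Libraries held 8515624 to 15904518 counts, with a median of 11058723. CPSF1 itself ranged from 151 to 153 CPM (counts scaled by library size) in LNCaP CTRL sh and from 86.6 to 109 CPM after knockdown, from 95.3 to 126 and from 56.4 to 67.2 CPM in LNCaP95, and from 182 to 189 and from 111 to 140.5 CPM in 22Rv1. No knockdown library reached its controls, and the log2 fold changes were -0.65, -0.89 and -0.50. All 9 luminal prostate markers were above 0 in every group. Of the markers of other cell types, KRT5 and TP63 (basal), PTPRC and CD3E (leukocyte) and CDH5 (endothelial) reached at most 4 counts in any library, while KRT14 (basal) reached 80, VWF (endothelial) 334 and COL1A1 (fibroblast) 1007 counts. The summed leukocyte markers, most of it CD68, went from 3.09 to 3.71 CPM in LNCaP CTRL sh to 15.0 to 19.5 CPM with CPSF1 sh2, from 6.62 to 9.34 CPM to 31.4 to 35.6 CPM in LNCaP95, and from 1.58 to 2.06 CPM to 7.71 to 8.41 CPM in 22Rv1. Summed luminal markers ranged from 5574 to 5679 CPM in LNCaP CTRL sh and from 4422 to 4719 CPM after knockdown, from 6437 to 6667 and from 4537 to 4795 CPM in LNCaP95, and in 22Rv1 from 3063 to 3081 CPM in CTRL sh, 3187 to 3224 CPM with CPSF1 sh1 and 2884 to 2941 CPM with CPSF1 sh2. Between LNCaP CTRL sh and CPSF1 sh2 the summed basal markers went from 1.26 to 2.12 CPM to 5.93 to 6.32 CPM, the fibroblast markers from 26.2 to 31.4 CPM to 17.9 to 21.0 CPM and the endothelial markers from 22.4 to 28.1 CPM to 9.34 to 11.3 CPM. In LNCaP95 with CPSF1 sh2 the same sums went from 1.64 to 3.00 CPM to 4.65 to 5.94 CPM, from 55.2 to 72.1 CPM to 43.9 to 46.7 CPM and from 0.67 to 1.24 CPM to 2.51 to 4.29 CPM. With CPSF1 sh1 the LNCaP95 basal (2.43 to 3.49 CPM) and fibroblast (53.6 to 58.3 CPM) sums overlapped CTRL sh. The endothelial sum (1.69 to 2.97 CPM) did not. In 22Rv1 the basal and endothelial sums were at most 0.47 CPM in any library. The fibroblast sum there went from 23.8 to 25.7 CPM to 17.7 to 20.2 CPM with CPSF1 sh2. The part of any of these lists in the results below was not tested. The test took genes that exceeded 2 CPM, here scaled by library size alone, in each library of a line. This kept 8 of the 10 genes in LNCaP, 9 in LNCaP95 and 8 in 22Rv1. EPAS1 was above that level in 5 of 9 LNCaP and 7 of 9 22Rv1 libraries, and HIF3A in none.

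With the hairpins pooled, 7 of the 8 genes tested in LNCaP passed the threshold of an adjusted p of 0.05, 2 higher and 5 lower, where 62.1% of all genes tested did, 31.1% higher and 31% lower. In LNCaP95 7 of 9 passed, 2 higher and 5 lower, beside 66.9% of all genes (33.2% higher, 33.7% lower), and in 22Rv1 3 of 8 passed, 2 higher and 1 lower, beside 26.9% (12.7% higher, 14.3% lower). As shares these are 87.5, 77.8 and 37.5% of so few genes that a count is not read as a result, and the values below show which genes moved and by how much. In LNCaP95 the higher calls were 49.6% of all calls with TMM scaling and 62.2% with library size alone. ARNT, EGLN2 and EGLN3 fell in LNCaP and LNCaP95 and did not pass in 22Rv1. EGLN1 fell in all 3 lines, ARNT2 fell in LNCaP and rose in the other two, and the HIF1A calls were small and went opposite ways in LNCaP and LNCaP95. Values are CPM normalised by TMM over the 27 libraries, and log2 fold changes come from a fit of each line with its own scaling.

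**Figure D1:**
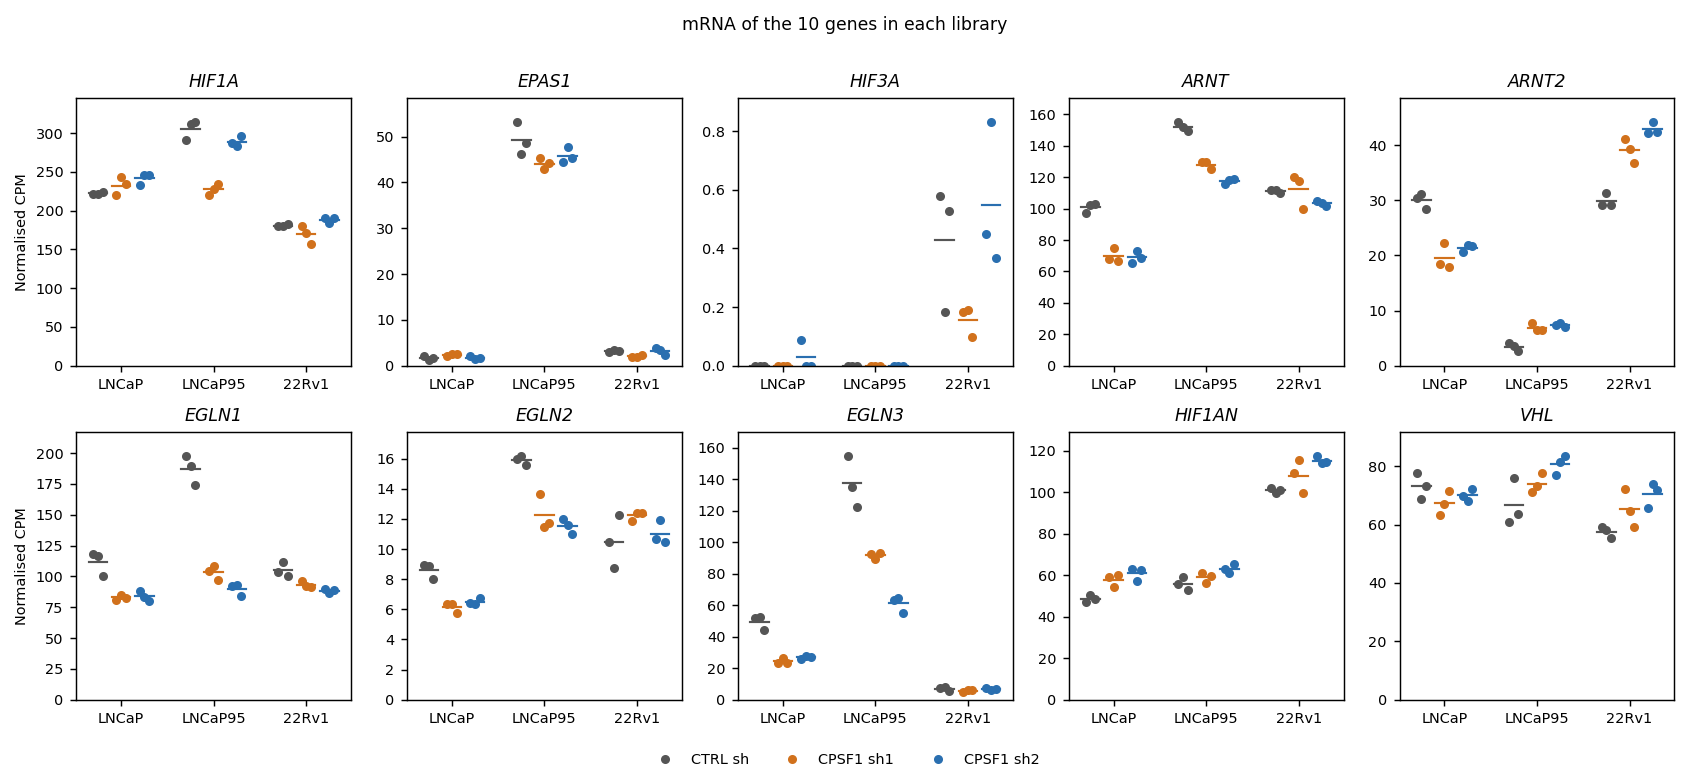
Normalised CPM (y axes, linear, from 0, a different scale for each gene) of the 10 genes in each of the 27 libraries, grouped by line on the x axis; points are libraries, coloured by hairpin, and bars are means of 3. EGLN1 and EGLN3 dropped from CTRL sh in LNCaP and LNCaP95, while ARNT2 dropped in LNCaP and rose in LNCaP95 and 22Rv1.

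HIF1A, which encodes the broadly expressed alpha subunit, lies at chr14:62162231-62214976 on the plus strand of GRCh37, the build of the count table. LNCaP cells with CTRL sh had 221, 222 and 224 CPM of HIF1A, those with CPSF1 sh1 219.7, 243 and 235 CPM, and those with CPSF1 sh2 233, 246 and 246 CPM. CPSF1 sh2 libraries were above all controls and CPSF1 sh1 libraries overlapped them. The pooled log2 fold change was 0.10 ± 0.038 (standard error, adjusted p = 0.0349), smaller in size than that of most genes, since 24.8% of the genes tested moved less. The call was lost without CPSF1 sh1 replicate 2, CPSF1 sh2 replicate 2 or 3 or any CTRL sh replicate, at log2 fold changes of 0.079 to 0.10, and with library size scaling or a looser filter.

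The LNCaP95 line held the most HIF1A, 291, 311 and 314 CPM with CTRL sh. CPSF1 sh1 libraries had 220.4, 228 and 234 CPM, all below the controls, with a log2 fold change of -0.43 ± 0.042 (adjusted p = 1.74e-08). CPSF1 sh2 libraries had 288, 283 and 296 CPM and overlapped the controls, with a log2 fold change of -0.080 ± 0.042 (adjusted p = 0.0907) that passed with looser filters (-0.12 and -0.14) and without CTRL sh replicate 1 (-0.12). The hairpins thus differed in this gene, by 0.35 ± 0.042 (log2, CPSF1 sh2 minus CPSF1 sh1, adjusted p = 3.56e-06). Pooling them gave -0.24 ± 0.093 (adjusted p = 0.0332). That pooled call was lost without any CPSF1 sh1 replicate or without CTRL sh replicate 2 or 3, at -0.20 to -0.23, and with library size scaling.

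In 22Rv1, HIF1A did not pass against CTRL sh with either hairpin or with both, although CPSF1 sh1 did without its replicate 1 (-0.15). Controls had 179.6 to 182 CPM, CPSF1 sh1 libraries 157 to 180.5 CPM and CPSF1 sh2 libraries 184.5 to 191 CPM. The pooled log2 fold change was -0.0099, with a 95% interval of -0.13 to 0.11 (adjusted p = 0.922). The means of the hairpins lay on opposite sides of the control mean, with CPSF1 sh1 replicate 1 inside the control range, and the hairpins differed by 0.17 ± 0.051 (adjusted p = 0.047). That difference fell short of the threshold without any 1 library other than CPSF1 sh1 replicate 1, at 0.11 to 0.18, with DESeq2 and with another filter.

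EPAS1 encodes HIF-2 alpha and lies at chr2:46520806-46613836 on the plus strand of GRCh37. It was a gene of LNCaP95 here, with 53.1, 46.2 and 48.5 CPM in CTRL sh libraries against 1.26 to 2.08 CPM in LNCaP and 2.97 to 3.40 CPM in 22Rv1. In LNCaP95, CPSF1 sh1 libraries had 45.3, 42.9 and 44.2 CPM, all below the controls, and CPSF1 sh2 libraries 44.5, 47.7 and 45.3 CPM, which overlapped them. The log2 fold change was -0.17 ± 0.061 with CPSF1 sh1 (adjusted p = 0.0208) and -0.11 ± 0.063 with CPSF1 sh2 (adjusted p = 0.126), and -0.14 ± 0.058 pooled (adjusted p = 0.0531). The difference of CPSF1 sh2 minus CPSF1 sh1 did not pass (0.059, adjusted p = 0.49). The CPSF1 sh1 call was lost without CTRL sh replicate 1 (-0.11) or CPSF1 sh1 replicate 2 (-0.15) and with library size scaling (-0.070). The pooled value passed the threshold under looser filters and with the hairpins fitted as separate groups and averaged. It also passed without CTRL sh replicate 2 (-0.18) or CPSF1 sh2 replicate 2 (-0.16). CPSF1 sh2 alone passed under looser filters and without CTRL sh replicate 2 (-0.15). In LNCaP and 22Rv1 EPAS1 rested on 15 to 42 counts per library and was not tested under the main filter. Under looser filters EPAS1 was lower with CPSF1 sh1 in 22Rv1 (-0.65, adjusted p = 0.045 and 0.0436) and passed in no other knockdown comparison of these lines.

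HIF3A, whose shorter products can restrain the other alpha subunits, was at 0 to 1 counts in LNCaP libraries, 0 in all 9 LNCaP95 libraries and 1 to 8 in 22Rv1. A count of 0 in a library allows up to 3 counts, and no change of HIF3A with knockdown was detectable at this depth. With no filter, HIF3A in CTRL sh was called higher in 22Rv1 than in LNCaP and LNCaP95 (both 5.30), on 2 to 7 counts in 22Rv1. Per kilobase of exon, HIF1A made up 99.5% ± 0.14 (SD, n = 3) of alpha-subunit mRNA in LNCaP CTRL sh, 98.6% ± 0.025 in 22Rv1 and 89.3% ± 1.07 in LNCaP95, where EPAS1 supplied 10.7% ± 1.07. After knockdown EPAS1 held 12.5% ± 0.56 of the LNCaP95 total with CPSF1 sh1 and 10.5% ± 0.49 with CPSF1 sh2.

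**Figure D2:**
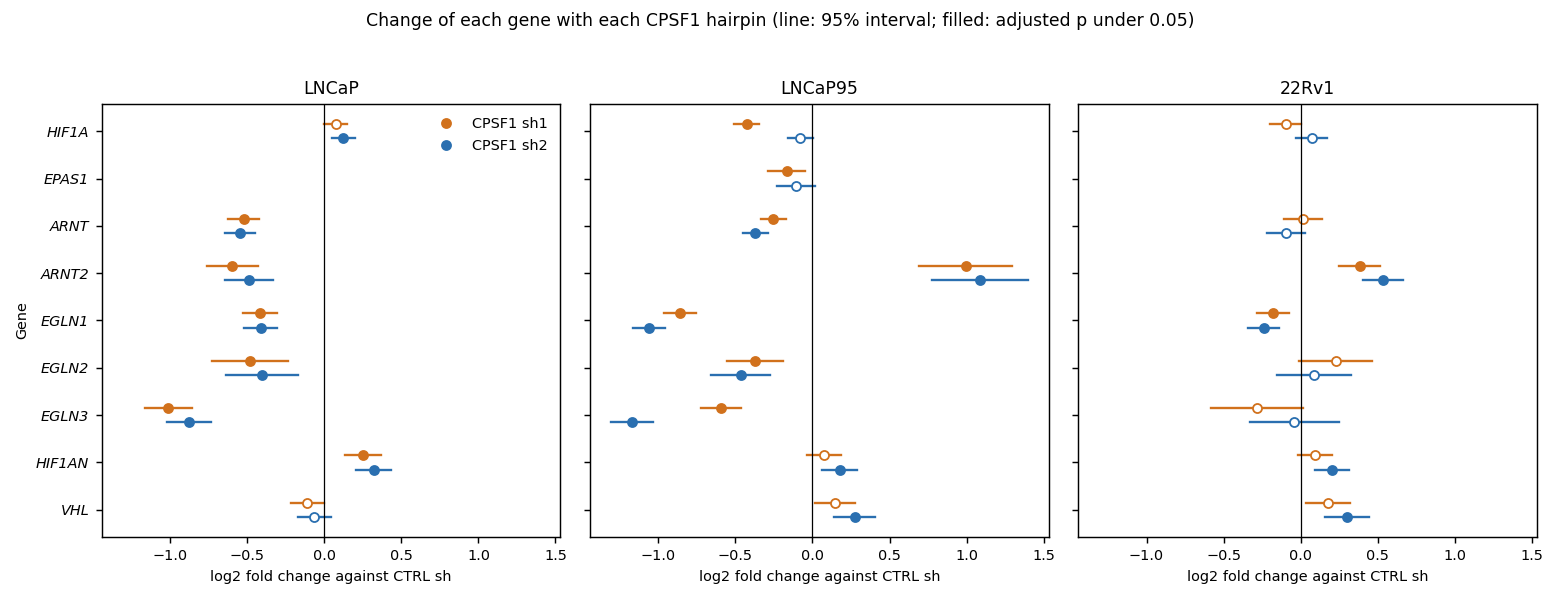
Log2 fold change against CTRL sh (x axis) of 9 genes (y axis) in the 3 lines, for CPSF1 sh1 and CPSF1 sh2 (n = 3 each, and the same 3 CTRL sh libraries for both); lines are 95% intervals and filled points passed an adjusted p of 0.05. Under the main filter HIF3A was not tested, and EPAS1 was tested in LNCaP95. The points of the hairpins were apart for HIF1A and EGLN3 in LNCaP95.

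ARNT, the usual beta partner of the HIF-alpha proteins, lies at chr1:150782181-150849244 on the minus strand of GRCh37. LNCaP CTRL sh libraries had 97.5, 103 and 103 CPM, CPSF1 sh1 libraries 67.9, 74.7 and 66.6 CPM and CPSF1 sh2 libraries 65.5, 73.3 and 68.6 CPM. Every knockdown library was below every control, and the pooled log2 fold change was -0.54 ± 0.046 (adjusted p = 1.85e-07). LNCaP95 controls had 155, 152 and 149 CPM, CPSF1 sh1 libraries 124.9 to 129.7 CPM and CPSF1 sh2 libraries 116 to 119 CPM. There too the groups did not overlap, with -0.25 ± 0.040 for CPSF1 sh1 (adjusted p = 1.28e-05) and -0.37 ± 0.041 for CPSF1 sh2 (adjusted p = 6.49e-08). In 22Rv1 the controls had 110.1 to 112 CPM and knockdown libraries 99.8 to 120.0 CPM, and the pooled value of -0.038 had a 95% interval of -0.16 to 0.084 (adjusted p = 0.687).

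ARNT2, a close relative of ARNT best known from neural tissue, fell in LNCaP and rose in LNCaP95 and 22Rv1, with a call in each line. It lies at chr15:80696693-80890278 on the plus strand of GRCh37. LNCaP CTRL sh libraries had 30.4, 31.1 and 28.4 CPM and knockdown libraries 18.0 to 22.3 CPM, with a log2 fold change of -0.54 ± 0.075 (adjusted p = 2.12e-05). LNCaP95 cells started far lower, at 4.07, 3.53 and 2.60 CPM, and had 7.65, 6.55 and 6.47 CPM with CPSF1 sh1 and 7.32, 7.70 and 7.06 CPM with CPSF1 sh2, a rise of 1.04 ± 0.14 (adjusted p = 3.38e-05). In 22Rv1, CTRL sh libraries had 29.1, 31.3 and 29.2 CPM and knockdown libraries 36.7 to 44.1 CPM, a rise of 0.46 ± 0.070 (adjusted p = 0.000379). No knockdown library overlapped its controls in any line, and in LNCaP95 the control values rested on 27 to 57 counts.

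Summed per kilobase, beta-subunit mRNA was 22.7 ± 0.53 CPM per kb in LNCaP CTRL sh and 15.5 ± 1.13 and 15.7 ± 0.80 CPM per kb with the hairpins. The ARNT2 share of it was 18.3% ± 0.92 in LNCaP controls and 17.4% ± 0.82 and 18.9% ± 0.51 after knockdown, within the spread of the replicates. In 22Rv1 the sum was 24.6 ± 0.31 in controls and 26.1 ± 2.33 and 25.0 ± 0.30 after knockdown, while the ARNT2 share went from 16.8% ± 0.52 to 20.8% ± 0.84 and 23.8% ± 0.52. In LNCaP95 the share went from 1.65% ± 0.33 to 3.90% ± 0.32 and 4.51% ± 0.20, so that ARNT made up most of the beta-subunit mRNA in all groups.

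**Figure D3:**
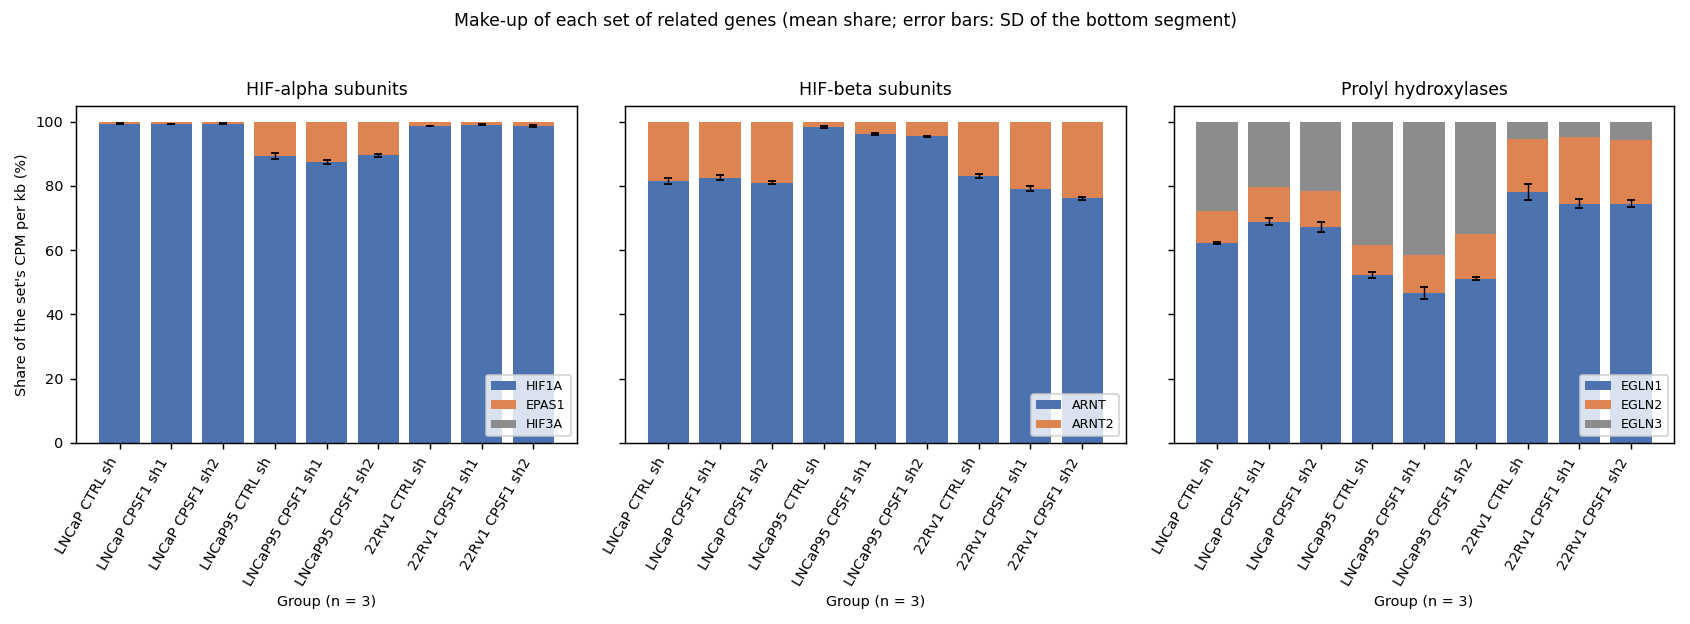
Mean share (%) of each gene in the CPM per kb of exon of the alpha subunits, the beta subunits and the prolyl hydroxylases (panels) in the 9 groups (x axis, n = 3); error bars are the SD of the bottom segment. EPAS1 was visible in LNCaP95, ARNT2 in LNCaP and 22Rv1, and EGLN3 took its smallest share, 4.72 to 5.79%, in the 22Rv1 groups.

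EGLN1 (PHD2), regarded as the main prolyl hydroxylase acting on HIF1A, lies at chr1:231499497-231560790 on the minus strand of GRCh37 and fell in all 3 lines. LNCaP controls had 118, 117 and 100.5 CPM and knockdown libraries 80.3 to 88.0 CPM, with a log2 fold change of -0.42 ± 0.051 (adjusted p = 6.34e-06). In LNCaP95 it went from 197, 189.7 and 174 CPM to 104, 109 and 97.5 CPM with CPSF1 sh1 and 92.0, 93.0 and 84.4 CPM with CPSF1 sh2. That fall of 0.95 ± 0.069 on the log2 scale (adjusted p = 2.95e-07) was larger in size than that of 93.9% of the genes tested in the line. In 22Rv1 controls had 104, 112 and 100.1 CPM and knockdown libraries 86.4 to 96.1 CPM, without overlap, and the change was -0.21 ± 0.049 (adjusted p = 0.00641). Without CTRL sh replicate 2 the 22Rv1 change was -0.16 (adjusted p = 0.0668).

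EGLN3 (PHD3), the hydroxylase most strongly induced by HIF in many cell types, lies at chr14:34393437-34931980 on the minus strand of GRCh37. LNCaP controls had 51.8, 52.5 and 44.6 CPM, CPSF1 sh1 libraries 23.2, 26.7 and 23.2 CPM and CPSF1 sh2 libraries 26.1, 28.0 and 26.9 CPM, a ratio of 0.521 (log2 fold change -0.94 ± 0.072, adjusted p = 5.1e-08). LNCaP95 controls had 154, 135 and 123 CPM, CPSF1 sh1 libraries 92.3, 89.6 and 92.9 CPM and CPSF1 sh2 libraries 63.5, 64.7 and 55.3 CPM. All knockdown libraries of both lines were below their controls, and in LNCaP95 all CPSF1 sh2 libraries were below all CPSF1 sh1 libraries. In that line the hairpins gave -0.59 ± 0.065 (adjusted p = 9.91e-08) and -1.17 ± 0.070 (adjusted p = 4.34e-12), a difference of -0.58 ± 0.071 (adjusted p = 4.48e-06) that exceeded the hairpin difference of 97.7% of the genes. EGLN3 was low in 22Rv1, at 5.71 to 8.17 CPM in controls and 5.15 to 7.71 CPM after knockdown (54 to 89 counts in controls), where the pooled change was -0.16 with a 95% interval of -0.43 to 0.12 (adjusted p = 0.443).

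EGLN2 (PHD1), which acts on HIF-alpha and on other proteins, lies at chr19:41304901-41314338 on the plus strand of GRCh37. Its values are uncertain, since 52.4% of its exon bases are shared with the read-through gene RAB4B-EGLN2 on the same strand. How the authors assigned fragments there is not given in the sources used here. RAB4B-EGLN2 had 0 to 3 counts per library, so that at most 3 fragments of a library were counted to both genes. If shared fragments were left out, CPM per kb of EGLN2, taken over all 3423 exon bases, is too low. LNCaP controls had 8.97, 8.85 and 8.04 CPM and knockdown libraries 5.73 to 6.76 CPM, a change of -0.44 ± 0.10 (adjusted p = 0.00142). LNCaP95 went from 16.0, 16.2 and 15.6 CPM to at most 13.7 CPM, a change of -0.42 ± 0.085 (adjusted p = 0.000852). The groups did not overlap in either line. In 22Rv1 they did, at 8.72 to 12.3 CPM in controls and 10.5 to 12.4 CPM after knockdown, with a change of 0.16 ± 0.11 (adjusted p = 0.317).

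The sum of the 3 prolyl hydroxylases per kilobase was 24.8 ± 2.09 CPM per kb in LNCaP CTRL sh and 16.6 ± 0.58 and 17.2 ± 0.43 after knockdown. In LNCaP95 it went from 49.4 ± 3.83 to 30.5 ± 0.74 and 24.2 ± 1.48, and in 22Rv1 from 18.5 ± 0.47 to 17.2 ± 0.17 and 16.3 ± 0.22. EGLN3 supplied 27.7% ± 0.26 of the sum in LNCaP controls and 20.3% ± 0.98 and 21.7% ± 1.07 with the hairpins, and EGLN1 was the largest part in every group. The sums and shares carry the uncertainty of EGLN2 that comes from its shared exon bases.

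HIF1AN (FIH), which limits coactivator binding by the alpha subunits, was higher with both hairpins in LNCaP and with CPSF1 sh2 in the other lines. It lies at chr10:102288829-102319755 on the plus strand of GRCh37, and 31 and 17 of its 13549 exon bases overlap NDUFB8 and SEC31B on the other strand, which the authors' strand-specific counting separates. LNCaP controls had 47.1, 50.3 and 48.6 CPM and knockdown libraries 54.3 to 62.9 CPM, without overlap, a rise of 0.29 ± 0.055 (adjusted p = 0.000338). LNCaP95 libraries with CPSF1 sh2 had 63.2, 60.9 and 65.4 CPM against 55.8, 58.9 and 52.7 CPM in controls, a rise of 0.18 ± 0.059 (adjusted p = 0.0104), and with CPSF1 sh1 the change was 0.075 ± 0.057 (adjusted p = 0.257). That CPSF1 sh2 call was lost with no filter (0.12) and without CPSF1 sh2 replicate 3 (0.15) or CTRL sh replicate 3 (0.14). In 22Rv1 CPSF1 sh2 libraries had 117, 114 and 114 CPM against 102, 99.7 and 101 CPM in controls, a rise of 0.20 ± 0.056 (adjusted p = 0.00913). The 22Rv1 change with CPSF1 sh1 was 0.095 ± 0.056 (adjusted p = 0.26), and was called without CPSF1 sh1 replicate 3 (0.16). The difference of CPSF1 sh2 minus CPSF1 sh1 did not pass in LNCaP95 (0.10, adjusted p = 0.177) or 22Rv1 (0.11, adjusted p = 0.235). Pooled values in these lines were 0.13 (adjusted p = 0.0759) for LNCaP95 and 0.15 (adjusted p = 0.0644) for 22Rv1. Both passed with the hairpins fitted as separate groups and averaged and with library size scaling, the former also without CPSF1 sh1 replicate 2 (0.15) or CTRL sh replicate 2 (0.17) and the latter without CPSF1 sh1 replicate 3 (0.18).

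VHL, which brings hydroxylated HIF-alpha to the ubiquitin ligase, lies at chr3:10182692-10193904 on the plus strand of GRCh37. In LNCaP it had 77.7, 68.7 and 73.3 CPM in controls and 63.4 to 72.1 CPM after knockdown, which overlapped, with a change of -0.087 and a 95% interval of -0.19 to 0.013 (adjusted p = 0.152). LNCaP95 controls had 60.8, 76.0 and 63.6 CPM, CPSF1 sh1 libraries 71.2, 73.3 and 77.6 CPM and CPSF1 sh2 libraries 77.0, 81.5 and 83.4 CPM. CTRL sh replicate 2 was the control that lay among the knockdown libraries, and the pooled rise was 0.21 ± 0.075 (adjusted p = 0.0254). That call was lost without CTRL sh replicate 1 (0.14) or 3 (0.18) or CPSF1 sh2 replicate 2 (0.19), and with looser filters. In 22Rv1 the 6 knockdown libraries, at 59.2 to 73.8 CPM, were above the controls at 59.1, 58.1 and 55.5 CPM, a rise of 0.24 ± 0.071 (adjusted p = 0.022) that was not called without any 1 of the CTRL sh replicates (0.22 to 0.26). By hairpin, the 22Rv1 rise was 0.30 ± 0.072 with CPSF1 sh2 (adjusted p = 0.00368) and 0.18 ± 0.072 with CPSF1 sh1 (adjusted p = 0.0965), the latter called without CPSF1 sh1 replicate 3 (0.25).

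Across single hairpins, 6 of 8 genes passed with CPSF1 sh1 in LNCaP and 7 of 8 with CPSF1 sh2, where 62.6% and 64.6% of all genes did. In LNCaP95 7 of 9 passed with each hairpin, beside 66.4% and 73.4% of all genes. In 22Rv1 2 of 8 passed with CPSF1 sh1 and 4 of 8 with CPSF1 sh2, beside 19.9% and 40% of all genes. The 22Rv1 calls with CPSF1 sh1 were ARNT2 (0.38) and EGLN1 (-0.18), and EGLN1 was lost without CPSF1 sh1 replicate 2 (-0.17) or CTRL sh replicate 1 (-0.19) or 2 (-0.13). Both hairpins were compared with the same 3 CTRL sh libraries, so that their changes are not independent.

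The hairpins themselves differed in none of the 8 genes in LNCaP by edgeR's quasi-likelihood test, where 14.8% of all genes did, and none had an unadjusted p under 0.05 or was called by DESeq2. In LNCaP95 4 of 9 differed, beside 34.1% of all genes: HIF1A was higher with CPSF1 sh2, and ARNT (-0.12, adjusted p = 0.0311), EGLN1 (-0.20, adjusted p = 0.00821) and EGLN3 were lower. Of these, ARNT did not differ without any 1 CPSF1 sh2 replicate or CPSF1 sh1 replicate 1 or 2 (-0.10 to -0.13), nor with DESeq2, and EGLN1 not without CPSF1 sh1 replicate 2 or CPSF1 sh2 replicate 3 (both -0.16), while VHL did without CTRL sh replicate 2 (0.13). In 22Rv1 HIF1A was the 1 of 8 that differed, beside 11.3% of all genes. VHL was added without CPSF1 sh1 replicate 1 (0.20) and ARNT without CPSF1 sh1 replicate 3 (-0.19).

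HIF target genes were set beside their regulators with a list of 26 genes known to respond to HIF, none of them among the 10. The list was chosen with earlier results of these data known, so that its counts are a description. In LNCaP 20 of 22 tested fell and 1 rose, with a median log2 fold change of -0.94 against -0.00036 over all genes. All-gene shares called lower were 31% for that line, 33.7% for LNCaP95 and 14.3% for 22Rv1. Of the target list, 23 of 24 fell in LNCaP95, with a median of -1.29, and 17 of 22 in 22Rv1, with a median of -0.40. The largest mean falls were those of NDUFA4L2, a mitochondrial protein that lowers complex I activity (-4.12 in LNCaP, -1.53 in LNCaP95 and -1.75 in 22Rv1), and PLOD2, a collagen lysyl hydroxylase (-2.97, -1.18 and -0.44). At the other end stood KDM4B, a histone demethylase (0.14, -0.48 and 0.049, the last not called), and FAM162A (-0.31, -0.65 and 0.11, the last not called). The HIF1A changes in the same lines were 0.10, -0.24 and -0.0099.

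By hairpin, the target list had medians in LNCaP of -0.97 with CPSF1 sh1 and -0.89 with CPSF1 sh2. Its LNCaP95 medians were -1.04 and -1.61, and its 22Rv1 medians -0.32 and -0.48. In the same order of hairpins and lines, HIF1A changed by 0.073 and 0.12, -0.43 and -0.080, and -0.095 and 0.071. EGLN1 changed by -0.42 and -0.41, -0.86 and -1.06, and -0.18 and -0.24. EGLN3 changed by -1.01 and -0.88, -0.59 and -1.17, and -0.28 and -0.041, the 22Rv1 values not called. ARNT changed by -0.52 and -0.55, -0.25 and -0.37, and 0.016 and -0.093, the 22Rv1 values again not called, although the second passed without CPSF1 sh1 replicate 3 (-0.094). Whether any of these changes bears on the fall of the target genes was not tested.

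Other genes of the pathway are given as counts with the pooled hairpins. Their lists, too, were chosen with earlier results of these data known. Of the 5 partners of VHL in its ubiquitin ligase, 3 rose and 0 fell in LNCaP, 1 rose and 2 fell in LNCaP95, and 0 rose and 1 fell in 22Rv1, with list medians of 0.16, 0.075 and 0.038. The shares called were 60, 60 and 20%, beside 62.1, 66.9 and 26.9% of all genes. TCEB1, which encodes elongin C, changed by 0.25, 0.14 and 0.038 in the order LNCaP, LNCaP95 and 22Rv1, and the first 2 values passed. TCEB2 (elongin B) had 0.25, 0.075 and 0.068, with the first passing. RBX1, the RING subunit, had 0.095, -0.22 and -0.25 and NEDD8, which modifies the cullin, 0.028, -0.26 and 0.084, and those that passed were both LNCaP95 values and RBX1 in 22Rv1.

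Of 17 factors for the stability, translation or coactivation of HIF-alpha, 9 rose and 2 fell in LNCaP, 4 rose and 6 fell in LNCaP95, and 3 rose and 1 fell in 22Rv1. The list medians were 0.088, -0.015 and -0.025, and the shares called were 64.7, 58.8 and 23.5%, beside the same 62.1, 66.9 and 26.9% of all genes, so that nothing particular to the list is read from these counts. SIAH1, a ubiquitin ligase that acts on the EGLN proteins, fell by 0.61 and 0.89 on the log2 scale in LNCaP and LNCaP95 and was at -0.025 in 22Rv1 (adjusted p = 0.826). P4HTM, a membrane-bound prolyl hydroxylase, fell by 0.78 and 0.73 in LNCaP and LNCaP95 and was at 0.015 in 22Rv1 (adjusted p = 0.856). STUB1, a chaperone-linked ubiquitin ligase, rose by 0.25 and 0.52 in those lines and was at -0.092 in 22Rv1 (adjusted p = 0.301), and SENP1, a SUMO protease, rose by 0.60 in LNCaP95 and 0.14 in 22Rv1.

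Of the 11 bHLH-PAS relatives of the HIF subunits, 5 were tested in LNCaP, where 1 rose and 3 fell, and 5 in LNCaP95, where 1 rose. In 22Rv1 8 were tested, of which 1 rose and 1 fell. The shares called were 80, 20 and 25% of these few genes. ARNTL (BMAL1), a clock gene, changed by 0.35, 0.13 and -0.085 in LNCaP, LNCaP95 and 22Rv1, and ARNTL2 by -0.50, 0.40 and -0.39. For ARNTL the first value and for ARNTL2 all 3 passed, while NPAS2 passed in LNCaP (-0.44) and SIM2 in no line (-0.16, 0.023 and 0.13). Of 11 enzymes that make or use 2-oxoglutarate, succinate or fumarate, the cosubstrate and inhibitors of the hydroxylases, 4 rose and 3 fell in LNCaP, 3 rose and 4 fell in LNCaP95, and 2 rose and 1 fell in 22Rv1. The shares called were 63.6, 63.6 and 27.3%, near those of all genes (62.1, 66.9 and 26.9%). IDH3A changed by 0.42, 0.73 and 0.087, OGDH by 0.27, 0.59 and 0.23, IDH2 by -0.087, -0.41 and -0.11 and SDHD by -0.038, -0.28 and -0.21. Of these 12 values, all but IDH3A and IDH2 in 22Rv1 and SDHD in LNCaP passed.

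Whether the response differed between lines was tested as the difference of knockdown effects in a fit of all 27 libraries, with 8 of the 10 genes. Between LNCaP95 and LNCaP 5 of 8 differed, beside 59.7% of all genes, between 22Rv1 and LNCaP 6 of 8, beside 50.3%, and between 22Rv1 and LNCaP95 6 of 8, beside 61.6%. The ARNT2 effect was 1.60 ± 0.14 higher in LNCaP95 than in LNCaP (adjusted p = 6.54e-11) and 1.02 ± 0.095 higher in 22Rv1 than in LNCaP (adjusted p = 3.73e-10). For EGLN1 the LNCaP95 effect minus the LNCaP effect was -0.52 ± 0.069 (adjusted p = 1.28e-07), and the 22Rv1 effect minus the LNCaP effect was 0.22 ± 0.072 (adjusted p = 0.0112), which was lost without LNCaP CTRL sh replicate 1 (0.18). EGLN3 effects in LNCaP95 and LNCaP differed by 0.081, with a 95% interval of -0.11 to 0.27 (adjusted p = 0.482), and those of HIF1AN passed for no pair of lines, except LNCaP95 minus LNCaP with another filter or without LNCaP95 CTRL sh replicate 3 (both -0.18). Without 22Rv1 CPSF1 sh1 replicate 1, HIF1A joined the calls between 22Rv1 and LNCaP (-0.12). The 3 differences share lines and are not independent.

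The lines also differed before knockdown. In CTRL sh libraries 8 of 9 tested genes differed between LNCaP95 and LNCaP, beside 75.7% of all genes, 6 of 9 between 22Rv1 and LNCaP, beside 83.4%, and 9 of 9 between 22Rv1 and LNCaP95, beside 85.5%. EPAS1 was 4.92 ± 0.13 higher on the log2 scale in LNCaP95 than in LNCaP (adjusted p = 3.4e-23), and EGLN3 was 1.48 ± 0.073 higher (adjusted p = 7.65e-17). For ARNT2 the log2 difference, LNCaP95 minus LNCaP, was -3.10 ± 0.12 (adjusted p = 1.76e-19). EGLN3 was lowest in 22Rv1, by -2.83 ± 0.12 against LNCaP (adjusted p = 8.26e-19), and HIF1AN highest there, by 1.02 ± 0.054 (adjusted p = 2.01e-16). The call of ARNT between 22Rv1 and LNCaP (0.11) was lost without any 1 LNCaP replicate or 22Rv1 replicate 1 or 2 (0.075 to 0.11). Calls were gained between these lines for EGLN1 without LNCaP replicate 3, 22Rv1 replicate 2 or any LNCaP95 replicate (-0.12 to -0.20) and for EGLN2 without 22Rv1 replicate 2 (0.36), and between LNCaP95 and LNCaP for VHL without replicate 2 of either (-0.17 and -0.23).

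Per kilobase of exon, HIF1A was the highest of the 10 genes in each line, at 48.1 ± 0.34 CPM per kb in LNCaP, 66.1 ± 2.72 in LNCaP95 and 39.1 ± 0.28 in 22Rv1 CTRL sh (SD, n = 3). In LNCaP the order was then ARNT (18.6), VHL (17.4), EGLN1 (15.4), EGLN3 (6.86), ARNT2 (4.16), HIF1AN (3.59), EGLN2 (2.52) and EPAS1 (0.26), and among neighbours ARNT and VHL overlapped. In LNCaP95 it was ARNT (28.0), EGLN1 (25.8), EGLN3 (19.0), VHL (15.9), EPAS1 (7.87), EGLN2 (4.65), HIF1AN (4.12) and ARNT2 (0.47), and EGLN3 and VHL overlapped. In 22Rv1 it was ARNT (20.5), EGLN1 (14.5), VHL (13.7), HIF1AN (7.45), ARNT2 (4.14), EGLN2 (3.06), EGLN3 (0.98) and EPAS1 (0.51), and EGLN1 and VHL overlapped. The place of EGLN2 in these orders is uncertain, because of the exon bases it shares with RAB4B-EGLN2. In bulk RNA, fewer cells with a transcript and less of it per cell cannot be told apart.

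**Figure D4:**
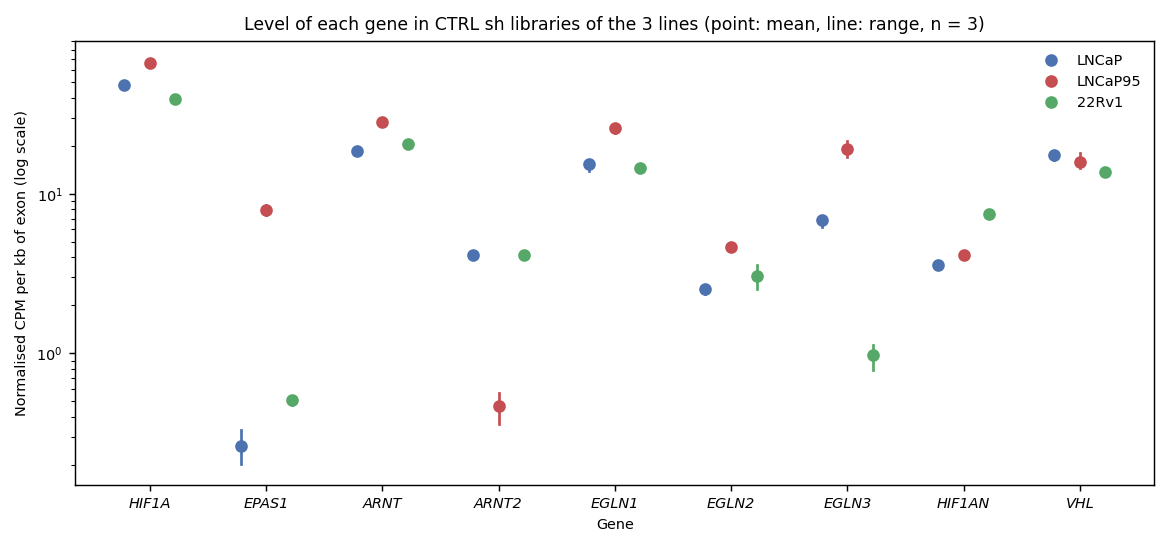
CPM per kb of exon (y axis, log scale) of 9 genes (x axis) in CTRL sh libraries of LNCaP, LNCaP95 and 22Rv1; points are means and lines the range of 3 libraries, and HIF3A, at or near 0, is left out. EPAS1 and EGLN3 stood highest in LNCaP95, where ARNT2 stood lowest.

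Over the 27 libraries, with each line centred on its own mean, log2 CPM of EGLN1 and EGLN3 correlated at r = 0.86, ARNT and EGLN3 at 0.83, ARNT and EGLN1 at 0.76 and ARNT and HIF1AN at -0.76. HIF1A stood apart from ARNT (0.0095), EGLN3 (-0.0080) and VHL (0.029), and was at -0.46 with ARNT2. These libraries share their hairpins, so that the values are descriptions. Among 10316 other genes, which include the HIF target list, those most like EGLN3 were MXI1 (0.95), FSCN1 (0.94) and DHRS3 (0.94), those most like EGLN1 were FAM13A, ARFGAP3 and ERO1L (0.97 each), and those most like ARNT were GLIS2 (0.94), VEGFB (0.94) and SLC16A1 (0.93). HIF1A was most like KPNA4 (0.86), YME1L1 (0.85) and ARFGEF2 (0.85), and VHL like ANK3 (0.81), RCN2 (0.81) and PGM2L1 (0.80).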

How the data were processed

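Poly(A) RNA was sequenced from strand-marked libraries. The authors aligned reads to hg19 (GRCh37) with HISAT2 (version 2.1.0 per the labels) and counted fragments on Ensembl genes with featureCounts of Subread (version 2.0.3 per the labels), and the deposited values are raw counts per gene and library, not normalised. How fragments on exons shared by genes were assigned is not given in the sources used here.

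From these counts, edgeR 4.0.16 (R 4.3.3) was run with its legacy quasi-likelihood F-test, TMM scaling and Benjamini-Hochberg adjustment over all genes tested, with a threshold of 0.05. Each line was fitted on genes above 2 CPM in all 9 libraries, with the hairpins pooled (3 against 6 libraries) or as 3 groups. Differences between lines came from all 27 libraries, over 10317 genes above 2 CPM in all of them. CTRL sh libraries of the lines were compared after the filterByExpr filter. Standard errors were worked out as the size of the log2 fold change over the square root of its F statistic. The 95% intervals used a normal quantile and are therefore narrower than the F-test itself would give. CPM per kb used the exon length of each gene, and printed CPM used TMM over all 27 libraries. Promoter letters are RefSeq's on GRCh38.p14, and no coordinates were converted between builds.

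Replicates are labelled as biological, and no 2 replicates agreed within sampling noise. Their chi-square per degree of freedom, near 1 for sampling noise alone, was 1.39 to 7.31. The highest value was that of 22Rv1 CPSF1 sh1 replicates 1 and 3, where replicates 2 and 3 had 4.56 and replicates 1 and 2 had 1.97. Depth was 8515624 to 15904518 counts per library, and intervals on single low counts cover counting error only. Alternatives were another filter, no filter, library size alone, RLE size factors, DESeq2 1.42.0, the newer edgeR test, a replicate block, averaged hairpins and each library left out. The test was run on simulated counts with known changes. Named genes were the 10 genes and CPSF1, the 2 highest and 2 lowest mean changes of each other list among genes tested in all 3 lines, and the 3 genes most correlated with each of HIF1A, ARNT, EGLN1, EGLN3 and VHL. The genes and lists were chosen with earlier results of these data known.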

Additional observations from a re-analysis of the deposited data

Results flagged for a closer look

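For 17 of the differences between lines, the knockdown effect (mean of both hairpins minus CTRL sh, log2) differed by the test of the difference itself in edgeR, over 8 genes and 3 pairs of lines that share libraries. Between LNCaP95 and LNCaP the differences, LNCaP95 minus LNCaP, were -0.33 for HIF1A, 0.24 for ARNT, 1.60 for ARNT2, -0.52 for EGLN1 and 0.32 for VHL, with adjusted p from 6.54e-11 to 0.00249. Between 22Rv1 and LNCaP they were 0.51 for ARNT, 1.02 for ARNT2, 0.22 for EGLN1, 0.61 for EGLN2, 0.79 for EGLN3 and 0.34 for VHL, with adjusted p from 3.73e-10 to 0.0112. Between 22Rv1 and LNCaP95 they were 0.24 for HIF1A, 0.27 for ARNT, -0.59 for ARNT2, 0.75 for EGLN1, 0.57 for EGLN2 and 0.71 for EGLN3, with adjusted p from 1.36e-10 to 0.000928.

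ARNT2 stood out among them, since its fitted changes were -0.54 in LNCaP, 1.04 in LNCaP95 and 0.46 in 22Rv1, and its difference between LNCaP95 and LNCaP was larger in size than that of 99.1% of the genes tested. Line and culture medium cannot be told apart for LNCaP95.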

How the results depend on the processing

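Log2 fold changes of 9 of the 10 genes were compared under the alternatives, without HIF3A, which the main filters excluded. Of these, 2739 kept direction and side of the threshold, 60 lost the call, 50 gained it and 21 reversed. The cause of these changes was not tested. With hairpins pooled, the LNCaP and LNCaP95 calls of ARNT, ARNT2, EGLN1, EGLN2 and EGLN3 were kept under every alternative listed in the methods, as were the LNCaP call of HIF1AN and the 22Rv1 call of ARNT2. With library size alone, reversed values, none of them called, were 0.00041 for HIF1A in 22Rv1 (pooled), and -0.056 for HIF1AN and -0.049 for VHL as effects in 22Rv1 minus LNCaP95. The same scaling moved levels in CTRL sh by more than the replicate SD for ARNT (27.3 CPM per kb) and EGLN2 (4.53) in LNCaP95 and HIF1A (38.8) in 22Rv1.

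Leaving out a library reversed other uncalled values, with ranges of -0.036 to 0.099 for ARNT with CPSF1 sh1 in 22Rv1, -0.064 to 0.033 for ARNT and -0.029 to 0.037 for EGLN1 between hairpins in LNCaP, -0.025 to 0.20 for EGLN2 and -0.16 to 0.072 for EGLN3 with CPSF1 sh2 in 22Rv1, and -0.030 to 0.029 for HIF1A in 22Rv1 (pooled). As differences between lines the ranges were -0.0041 to 0.086 for EGLN2 in LNCaP95 minus LNCaP, and -0.021 to 0.056 for HIF1AN and -0.079 to 0.096 for VHL in 22Rv1 minus LNCaP95. Counts of these genes called ranged from 1 to 4 for 22Rv1 pooled (1 without CTRL sh replicate 2), 1 to 4 for CPSF1 sh1 in 22Rv1, 0 to 2 between hairpins in 22Rv1 and 2 to 5 between hairpins in LNCaP95 (2 without CPSF1 sh1 replicate 2 or CPSF1 sh2 replicate 3). For CPSF1 sh1 in 22Rv1 the count of 4 came without CPSF1 sh1 replicate 3. The 22Rv1 hairpin count of 1 became 0 with DESeq2, with another filter and with the replicate block.

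Among LNCaP libraries, 3 of 9 same-numbered pairs had deviations that correlated over 0.1, against 0 of 18 pairs with different numbers. The medians there were 0.066 and -0.024, so that replicate numbers went with some shared deviation. For LNCaP95 the counts were 3 of 9 against 5 of 18, while 22Rv1 had 1 of 9 against 2 of 18. No pairing by number was seen from these counts in LNCaP95 or 22Rv1, but so few pairs, which share libraries, cannot exclude one. The medians, same-numbered pairs first, were 0.0078 and -0.048 in LNCaP95 and -0.0079 and -0.013 in 22Rv1. With the replicate block the pooled counts were 7 in LNCaP, 6 in LNCaP95, where HIF1A had an adjusted p of 0.0606 in edgeR, and 3 in 22Rv1. Depth limits HIF3A in all lines, EPAS1 in LNCaP and 22Rv1, and ARNT2 in LNCaP95 CTRL sh.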
